A study of Mus musculus with 6 samples.

Results

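Iron storage and uptake were examined through 9 genes, chosen by symbol: the ferritin subunits Fth1 and Ftl1, the ferritin receptor Ncoa4, the importers Tfrc, Slc11a2 and Slc39a14, the iron regulatory proteins Aco1 and Ireb2, and Hfe. All 9 were found once each among the 57010 genes of the table, and all 9 reached 1 TPM in every library, so each was among the 11375 genes tested. TPM is the length-corrected share of a gene in all transcripts of a library. The libraries came from gastrocnemius, a calf muscle, of NOD/SCID/IL2Rγ-null (NSG) mice, which lack mature lymphocytes. Every mouse carried a subcutaneous flank tumour of MDA-MB-231, a human breast cancer line, with knockdown (KD) of Rab27a, a GTPase of vesicle secretion, so both groups share the knockdown and no group lacks the tumour. Radiotherapy (n = 3) was 1 dose of 10 Gy to the tumour, and the muscle on the opposite, unirradiated side was collected after 3 days. The control group (n = 3) had tumours that were not irradiated. The sources used here give neither ages nor the number of tumour cell clones, nor whether each library is 1 mouse, so p-values measure only the spread between these samples, which may be technical.

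Cells take up transferrin-bound iron through the transferrin receptor (Tfrc) and release it from endosomes through the transporter Slc11a2 (DMT1), while Slc39a14 (ZIP14) imports iron that is not bound to transferrin. Surplus iron is stored in ferritin, a shell of heavy (Fth1) and light (Ftl1) subunits, and Ncoa4 carries ferritin to the lysosome when iron is needed. Aco1 (IRP1) and Ireb2 (IRP2) bind a hairpin called the iron-responsive element when iron is low, which blocks translation of ferritin mRNA and protects Tfrc mRNA from decay. Muscle holds much of the iron of the body in myoglobin and in mitochondrial enzymes. Values of the libraries are given below in the order 1, 2, 3 within each group. Because control of ferritin is largely translational, an mRNA level does not report the amount of ferritin protein.

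The hairpin sites are shown because they divide the 9 genes into those whose UTRs held the motif of the element and those whose UTRs did not. Each site was read from the GENCODE M21 mouse transcripts (GRCm38), on the transcript strand and 5′ to 3′, with the loop bases in capitals and T for U. The motif searched was the loop CAGTGN with 5 stem bases on either side, of which at least 4 pair with each other (G with T allowed), and an unpaired C directly before the first stem bases. In Fth1-201 the site lies at bases 87 to 116 of the transcript, in the 5′ UTR, and in Ftl1-201 at bases 78 to 107, also in the 5′ UTR. Tfrc-201 held 4 sites in its 3′ UTR, the first at bases 3315 to 3344 and the last at bases 3806 to 3835. Slc11a2-205 held 1 site in its 3′ UTR, at bases 1797 to 1826, with 4 of 5 stem pairs, while the other complete Slc11a2 transcript had no match. Ftl1 and Tfrc also each had another complete transcript with no match.
Fth1: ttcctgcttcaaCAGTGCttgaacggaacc
Ftl1: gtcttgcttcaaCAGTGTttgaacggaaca
Tfrc site 1: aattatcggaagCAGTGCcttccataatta
Tfrc site 2: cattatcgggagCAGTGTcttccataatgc
Tfrc site 3: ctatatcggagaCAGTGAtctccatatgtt
Tfrc site 4: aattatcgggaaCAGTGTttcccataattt
Slc11a2: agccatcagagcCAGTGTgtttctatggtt

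The motif was thus found in 4 of the 9 genes, in the 5′ UTR of both storage subunits and in the 3′ UTR of 2 importers. Among all protein-coding genes of the annotation it was found in the 5′ UTR of 0.844% of 20847 genes and in the 3′ UTR of 3.96% of 21611 genes. On the opposite strand the shares were 0.839% and 3.6%, so the letters turn up about as often on either strand. UTR lengths differ between genes. Within the first 100 bases of the 5′ UTR the share was 0.369% of 15713 genes. No match was found in Ncoa4, Slc39a14, Ireb2, Aco1 or Hfe. This says only that the motif with its stem pairs was not in the UTRs searched. Those were the UTRs of complete protein-coding transcripts in the basic annotation set of GENCODE.

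No difference between radiotherapy and control was called for any of the 9 genes. Limma at an adjusted p of 0.05 called 0 of the 9, beside 0% of all genes tested, and the members' adjusted p-values ran from 0.977 to 0.991. At an unadjusted p under 0.05 limma counted 0 of the 9, beside 3.82% of all genes tested. For each of the 9 the groups overlapped. Groups did not overlap for 9.24% of all genes tested, so finding none in a list of 9 genes says little. The log2 fold changes (radiotherapy minus control, on log2(TPM + 1)) ran from −0.40 for Aco1 to 0.20 for Slc39a14. They were negative for 7 of the 9, beside 67.9% of all genes, and their median was −0.23, beside −0.11 for all genes tested. Median-of-ratios scaling, which removes the shift shared by all genes, moved the median of all genes by 0.11 to −0.0011 and that of the members to −0.09. Under that scaling the log2 fold changes of Fth1, Hfe, Slc11a2 and Ncoa4 were −0.17, −0.19, −0.19 and −0.09, nearer to 0 than the unscaled values given below.

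**Figure D1:**
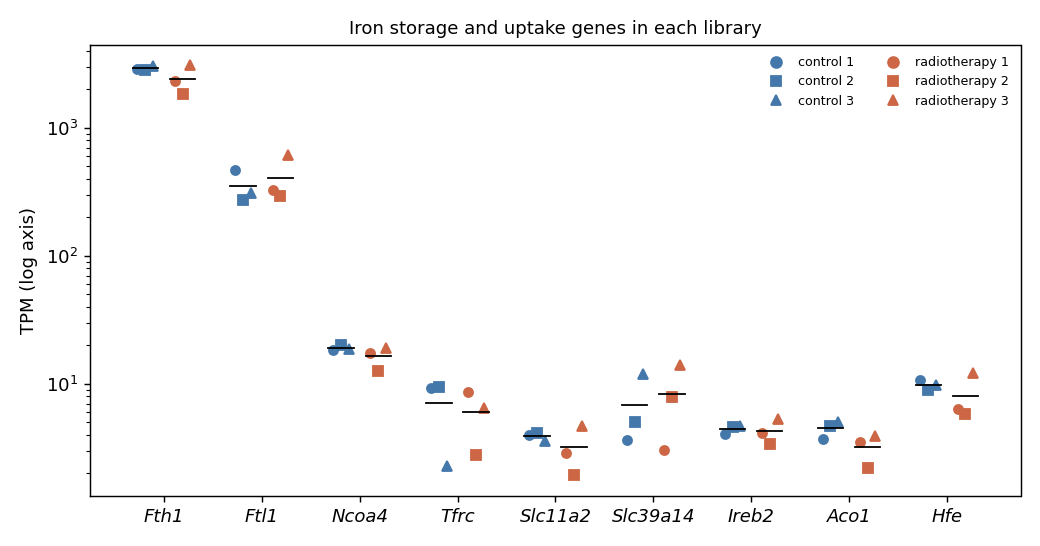
TPM (log axis) of the 9 iron storage and uptake genes in the 3 control (blue) and 3 radiotherapy (orange) libraries, with the group means as bars. The groups overlap for every gene, and radiotherapy 2 (square) is the lowest library for 6 of the 9 genes.

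The libraries differed in ways that touch all 9 genes. Radiotherapy 2 was the lowest library for 6 of the 9 and radiotherapy 3 the highest for 6 of the 9. Over all genes tested, the median gene of radiotherapy 2 lay at −0.29 and that of radiotherapy 3 at 0.20 on the log2 scale, relative to the gene's mean over the 6 libraries. The members' medians in the same libraries were −0.51 and 0.24. Genes of the mitochondrial genome took between 8.93 and 13.7% of control TPM and between 15.1 and 22.5% with radiotherapy, with the highest share in radiotherapy 2, and a larger share of some transcripts lowers that of all others. The 10 skeletal muscle markers, all of them tested, summed to 146846 to 156965 TPM in controls and 73889 to 123839 TPM after radiotherapy, so the label of the tissue was met in every library. In bulk tissue, fewer cells of a type and less RNA per cell cannot be told apart. The part of these shifts in the members' values was tested only through the scalings named here.

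Ferritin was by far the most abundant product among the members. Fth1, the heavy subunit that oxidises iron as it enters the shell, measured 2876, 2818 and 3063 TPM in the control libraries, against 2298, 1821 and 3083 TPM with radiotherapy. Its mean ranked 35 among all genes of the table. Radiotherapy 1 and 2 lay below every control and radiotherapy 3 above every control. The means were 2919 ± 128 TPM and 2401 ± 637 TPM (SD, n = 3 each), a log2 fold change of −0.31 with a 95% interval from −0.80 to 0.17 (SE 0.21, limma adjusted p = 0.977). It was −0.13 without radiotherapy 2 and −0.51 without radiotherapy 3. Relative to the median of all genes the Fth1 difference was −0.20. The spread of Fth1 was 4.38% of its mean in controls and 26.6% after radiotherapy.

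Ftl1, the light subunit that helps the iron core form, measured 471, 275 and 309 TPM in the control libraries, against 324, 293 and 608 TPM with radiotherapy. Radiotherapy 3 held the highest value and control 1 the next. The log2 fold change of Ftl1 was 0.18 (95% interval −0.56 to 0.91, limma adjusted p = 0.982), and without radiotherapy 3 it was −0.15. Control 1 and radiotherapy 3 were also the libraries with the most macrophage and neutrophil transcripts. The 12 macrophage markers summed to 362 TPM in control 1 and 188 TPM in radiotherapy 3, against 34.6 to 53.7 TPM in the other 4 libraries. The 9 neutrophil markers summed to 1634 and 682 TPM in those libraries, against 151 to 284 TPM in the rest. Fibro-adipogenic progenitor markers were also highest in control 1 and radiotherapy 3, at 717 and 387 TPM against 229 to 324 TPM. So were endothelial markers, at 131 and 144 TPM against 99.9 to 128 TPM. Adipocyte markers were instead highest in radiotherapy 1, at 894 TPM, and satellite cell markers in control 3, at 20.4 TPM. Of the macrophage markers 8 of 12 were tested, and none was at 0 in every library. The part of these cell types in the Ftl1 values was not tested.

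Several other genes carry a ferritin symbol, and whether their reads can be told from those of the subunits was not tested. The pseudogene Ftl1-ps1 was listed at 0.90 to 3.61 TPM and Fth-ps2 at up to 0.59 TPM, so the copies with a ferritin symbol held little of the assigned signal. How reads were divided between Ftl1 and its copies is not stated, so the single values of these genes are uncertain to that extent.

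Ncoa4, the receptor that takes ferritin into autophagosomes, had one of the narrowest spreads among the members. The control libraries gave 18.3, 20.1 and 18.7 TPM of Ncoa4, and the radiotherapy libraries 17.5, 12.6 and 18.9 TPM. Radiotherapy 2 alone stood below the rest. The log2 fold change of Ncoa4 was −0.23 (95% interval −0.77 to 0.32), and it was −0.06 without radiotherapy 2.

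The importers varied more from library to library than from group to group. Tfrc, the transferrin receptor, measured 9.34, 9.39 and 2.29 TPM in the control libraries, against 8.66, 2.79 and 6.43 TPM with radiotherapy. The values lay high in control 1, control 2 and radiotherapy 1, and low in control 3 and radiotherapy 2, a 4.10-fold range that crosses the groups. The means were 7.01 ± 4.08 TPM and 5.96 ± 2.96 TPM (SD, n = 3 each), with a log2 fold change of −0.13 (95% interval −1.25 to 1.00, limma adjusted p = 0.991). Its sign turned positive without control 1 (0.15), control 2 (0.15) or radiotherapy 2 (0.26). The interval of Tfrc covers a change of more than 2-fold lower and of 2-fold higher.

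Erythroid precursors are rich in transferrin receptor, and red cell transcripts did separate the groups. The 10 erythroid markers in the table summed to 3378 to 7251 TPM in controls and 942 to 1645 TPM after radiotherapy. The membrane protein gene Slc4a1, which marks red cell precursors, was at most 0.69 TPM in any library. By library, the erythroid sums were 4217, 7251 and 3378 TPM in the control group and 1645, 942 and 1539 TPM in the radiotherapy group, to be read beside the Tfrc values above. The part of erythroid cells in the Tfrc values was not tested.

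Slc39a14, the ZIP14 importer, measured 3.62, 5.03 and 12.0 TPM in the control libraries, against 3.04, 7.92 and 14.1 TPM with radiotherapy. It had the widest range of the 9, 4.63-fold, with high values in control 3 and radiotherapy 3 and low values in control 1 and radiotherapy 1. The log2 fold change was 0.20 (95% interval −0.97 to 1.36), and it was −0.12 without control 1 and −0.25 without radiotherapy 3.

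Slc11a2, which moves iron out of the endosome, measured 4.01, 4.10 and 3.59 TPM in the control libraries, against 2.89, 1.93 and 4.71 TPM with radiotherapy. As for Fth1, radiotherapy 1 and 2 lay below every control and radiotherapy 3 above. The log2 fold change of Slc11a2 was −0.28 (95% interval −0.91 to 0.34), −0.05 without radiotherapy 2 and −0.54 without radiotherapy 3. The table gives 1 value per gene, so transcripts with and without the 3′ UTR site shown above were not separated. The same holds for the transcripts of Ftl1 and Tfrc with and without their sites.

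**Figure D2:**
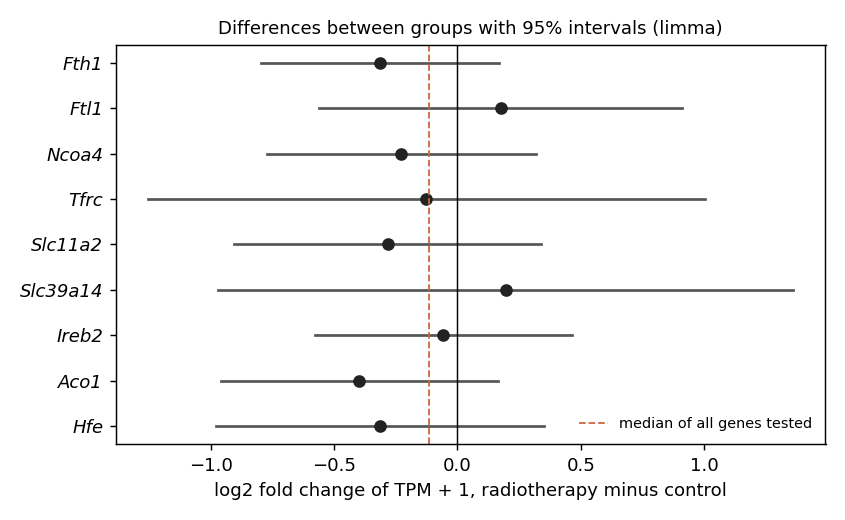
Log2 fold change of TPM + 1 (radiotherapy minus control, x axis) of each of the 9 genes, with limma's 95% interval from 3 libraries per group. Every interval crosses 0 and also the median of all genes tested (dashed, −0.11), and the widest belong to Tfrc and Slc39a14.

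The iron regulatory proteins were expressed at like, low levels. Aco1, which is an aconitase when it holds an iron-sulphur cluster and binds RNA when it does not, measured 3.71, 4.71 and 5.04 TPM in the control libraries, against 3.52, 2.21 and 3.89 TPM with radiotherapy. Radiotherapy 1 and 2 lay below every control, while radiotherapy 3 lay between control 1 and control 2. Its log2 fold change, −0.40 (95% interval −0.96 to 0.16, SE 0.25, limma adjusted p = 0.977), was the lowest of the 9 with all libraries in. It was −0.21 without radiotherapy 2. Without radiotherapy 3 it was −0.52, where Hfe and Slc11a2 were lower, at −0.61 and −0.54.

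Ireb2, which binds the same element and is degraded when iron is plentiful, measured 4.02, 4.55 and 4.69 TPM in the control libraries, against 4.09, 3.41 and 5.26 TPM with radiotherapy. Its log2 fold change was −0.06 (95% interval −0.58 to 0.46), and it turned positive, at 0.05, 0.04 and 0.03, with median-of-ratios scaling, with quantile normalization and with the mitochondrial and most abundant genes left out. Ireb2 therefore had no direction that held across scalings.

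A ratio of genes within a library does not depend on the total that TPM is scaled to. The TPM ratio of Ireb2 to Aco1 was 1.08, 0.966 and 0.931 in controls 1, 2 and 3 and 1.16, 1.54 and 1.35 in radiotherapy 1, 2 and 3. The groups did not overlap, with means of 0.994 ± 0.0803 and 1.35 ± 0.191 (SD, n = 3 each). This was 1 of 3 ratios examined, and no test was made. Such separation is common here: the ratio of a gene to Aco1 separated the groups for 17.4% of all genes tested, and the ratio of Ireb2 to a gene did so for 12.5%.

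The other ratios overlapped between the groups. Fth1 was 6.11, 10.3 and 9.90 times the TPM of Ftl1 in controls 1, 2 and 3 and 7.10, 6.21 and 5.07 times in radiotherapy 1, 2 and 3. Control 1 lay among the radiotherapy values, whereas controls 2 and 3 lay above them. Tfrc per 1000 TPM of Fth1 was 3.25, 3.33 and 0.748 in controls and 3.77, 1.53 and 2.09 after radiotherapy, with means of 2.44 ± 1.47 and 2.46 ± 1.17 (SD, n = 3 each).

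**Figure D3:**
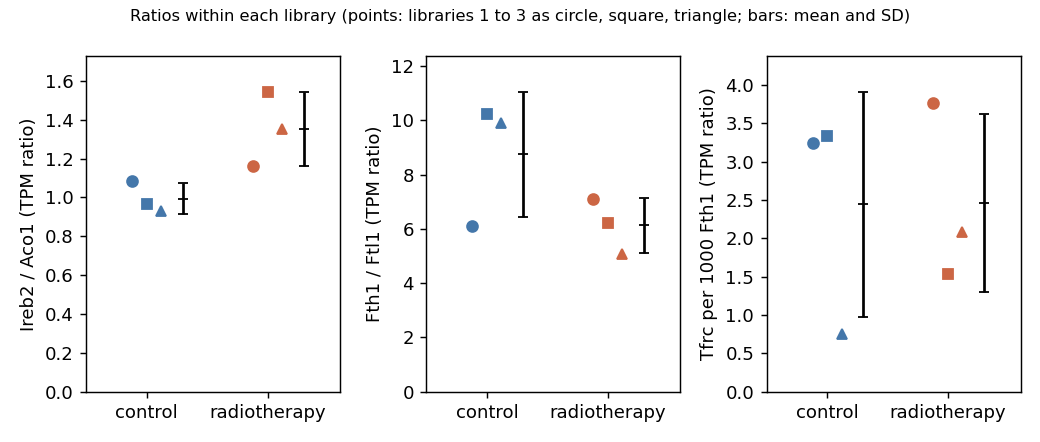
TPM ratios of Ireb2 to Aco1, of Fth1 to Ftl1 and of Tfrc per 1000 Fth1 (y axes, from 0) in the 3 control and 3 radiotherapy libraries, with the mean and SD of each group beside the points. The ratio of Ireb2 to Aco1 separates the groups, at 0.931 to 1.08 against 1.16 to 1.54, and the other ratios overlap.

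Hfe, a major histocompatibility complex-like protein that binds the transferrin receptor and is mutated in hereditary haemochromatosis, measured 10.7, 8.94 and 9.77 TPM in the control libraries, against 6.33, 5.79 and 12.1 TPM with radiotherapy. Its pattern was that of Fth1 and Slc11a2, with radiotherapy 1 and 2 below every control and radiotherapy 3 above. The log2 fold change was −0.32 (95% interval −0.98 to 0.35), −0.61 without radiotherapy 3 and −0.14 without radiotherapy 2.

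By mean TPM in controls the members stood in the order Fth1, Ftl1, Ncoa4, Hfe, Tfrc, Slc39a14, Aco1, Ireb2 and Slc11a2. The steps from Fth1 to Ftl1 and from Ftl1 to Ncoa4 were wider than the spread of either neighbour, as was that from Ncoa4 to Hfe. From Hfe to Ireb2, each step was within the SD of at least 1 of the neighbours: Hfe was at 9.81 ± 0.891 TPM, Tfrc at 7.01 ± 4.08 TPM, Slc39a14 at 6.88 ± 4.48 TPM, and Aco1, Ireb2 and Slc11a2 at 4.49 ± 0.693, 4.42 ± 0.353 and 3.90 ± 0.272 TPM (SD, n = 3). The last step, from Ireb2 to Slc11a2, was wider than the SD of either. After radiotherapy Slc39a14, at 8.34 ± 5.52 TPM, stood above Hfe, at 8.07 ± 3.49 TPM, again within their spread.

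Among 11375 genes, those with the profile nearest to Tfrc over the 6 libraries were Calm2, Rian and Tnk2. Their centred log2(TPM + 1) values differed from those of Tfrc by a root mean square of 0.15, 0.16 and 0.20. Nearest to Fth1 were Mrrf, Dnajc10 and Fbxo28, at 0.03, 0.03 and 0.04. With 6 libraries and this many genes, near matches are to be found for most profiles.

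The other genes of iron handling were read from 5 lists, which held 64 different genes of the table, 49 of them tested. Limma at an adjusted p of 0.05 called 0 of these 49. Iron export and its systemic control had 5 tested members of 12 in the table, with a median log2 fold change of −0.04. That median was 0.07 with median-of-ratios scaling, 0.07 with quantile normalization and 0.06 with the mitochondrial and most abundant genes left out. The largest difference of the list, 0.91 for Cp, is described under the other observations. Slc40a1 (ferroportin), the iron exporter, measured 3.14, 4.25 and 6.17 TPM in the control libraries, against 3.16, 3.87 and 6.05 TPM with radiotherapy, with a log2 fold change of −0.04 (95% interval −0.71 to 0.63). Hamp, the liver hormone hepcidin that closes ferroportin, was listed at 0 in all 6 libraries, and the hepatocyte markers summed to at most 0.97 TPM.

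Hjv (hemojuvelin), a bone morphogenetic protein co-receptor made mainly in muscle and liver, was the most abundant gene of that list. It measured 273, 226 and 243 TPM in the control libraries, against 201, 112 and 163 TPM with radiotherapy, so that the highest radiotherapy value was under the lowest control value. The log2 fold change of Hjv was −0.67 (SE 0.26, 95% interval −1.26 to −0.09, limma unadjusted p = 0.0285, adjusted p = 0.977). Neo1 (neogenin), which binds hemojuvelin, measured 5.35, 5.29 and 5.44 TPM in the control libraries, against 3.98, 2.94 and 3.93 TPM with radiotherapy, again without overlap (log2 fold change −0.47, limma adjusted p = 0.977). Groups with radiotherapy wholly below control made up 7.54% of all genes tested. Most muscle markers were lower in the same libraries: 9 of the 10 had negative log2 fold changes, with a median of −0.57, and 7 of the 10 had no overlap, with radiotherapy lower. With median-of-ratios scaling the muscle marker median was −0.43 and Hjv and Neo1 gave −0.53 and −0.36, so both stayed negative. With the mitochondrial and most abundant genes left out, Hjv gave −0.57 and Neo1 −0.43. That setting leaves out most of the muscle markers themselves, and the muscle marker median was 0.65 there, so it cannot be set beside the median above. The part of the muscle shift in Hjv and Neo1 was not tested further.

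Genes of iron reduction and other uptake routes had 7 tested members of 14, with a median log2 fold change of −0.02 and overlapping groups for every one. Lcn2 (lipocalin 2), which binds iron-laden siderophores, had the largest difference, 1.11 (95% interval −0.27 to 2.49), with 285 TPM in radiotherapy 3 against 25.1 to 71.4 TPM in the other libraries. Steap3, the endosomal reductase that prepares iron for Slc11a2, gave −0.49 (95% interval −1.20 to 0.23). Among the 10 tested cytosolic iron chaperones and genes of IRP turnover, the median was −0.09 and no groups were apart. Groups were apart for 9.24% of all genes tested, so finding none in lists of 7 and 10 genes says little. Neither list median kept its sign under the scalings: with median-of-ratios scaling, quantile normalization and the most abundant genes left out, that of the uptake routes was 0.11, 0.04 and 0.15, and that of the chaperones 0.05, 0.09 and 0.02. Fbxl5, the iron-sensing ubiquitin ligase subunit that degrades Ireb2, gave −0.18, its partners Skp1 and Cul1 gave −0.45 and 0.23, and the glutaredoxin Glrx3 gave −0.33. Pcbp1 and Pcbp2, which deliver iron to ferritin, gave −0.03 and −0.04.

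Mitochondrial iron import and iron-sulphur cluster assembly had 21 tested members of 22, with 14 negative log2 fold changes and a median of −0.11, the same as that of all genes to that decimal. That list median moved to 0.03 with median-of-ratios scaling, so the list had no direction that held across scalings. In 4 of the 21 radiotherapy lay wholly below control, beside 7.54% of all genes tested. Among them were Fech, which inserts iron into haem, Cisd1, an iron-sulphur protein of the outer membrane, and Iba57, a late-acting assembly factor. Fech measured 51.3, 67.3 and 69.3 TPM in the control libraries, against 47.4, 25.7 and 43.8 TPM with radiotherapy (log2 fold change −0.70, limma unadjusted p = 0.0371, adjusted p = 0.977). The log2 fold changes were −0.39 for Cisd1 and −0.47 for Iba57. Isca1, an assembly protein, gave −0.71 with overlapping groups, and the scaffold gene Iscu gave 0.14.

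A further 7 transcripts listed for a known or reported iron-responsive element were all tested. The motif described above was found in the UTRs of Alas2, Slc40a1 and Cdc14a and not in those of Pfn2, Epas1 or Cdc42bpa. Alas2, the first enzyme of haem synthesis in red cell precursors, whose mRNA carries a 5′ element, measured 10.0, 17.3 and 9.83 TPM in the control libraries, against 3.61, 1.96 and 3.91 TPM with radiotherapy (log2 fold change −1.68, limma adjusted p = 0.864). It is itself among the erythroid markers, of which all 7 tested had negative values with a median of −1.68. Pfn2, an actin-binding profilin, gave −0.61 with radiotherapy wholly below control, and the phosphatase Cdc14a gave 0.45 with radiotherapy wholly above control, beside 1.7% of all genes in that direction. The list median was −0.04 and turned to 0.07, 0.07 and 0.05 under the same scalings, and the iron exporter and the hypoxia factor Epas1 (0.08) lay near 0.

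**Figure D4:**
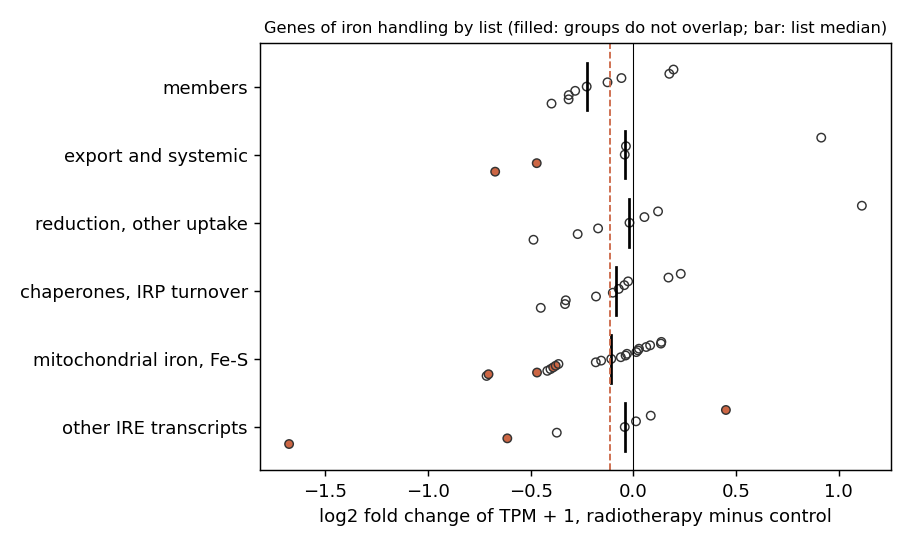
Log2 fold change of TPM + 1 (radiotherapy minus control, x axis) of the tested genes in 6 lists of iron handling, 1 point a gene, filled where the groups do not overlap, with the list median as a bar and the median of all genes tested as a dashed line. No member of the storage and uptake list is filled, and the filled points of the other lists lie below 0 except Cdc14a at 0.45.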

How the data were processed

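Total RNA was sequenced from TruSeq libraries, per the labels' protocols. TPM values, scaled by the authors to a fixed total, were deposited as 1 table, and HISAT2, StringTie and RSEM with build mm9 are named in the submitters' processing notes; the sources used here give no versions, annotation or strandedness. Each column sums to the same total, so depth is unknown and no counting interval is given. No sample column was left unused, and at most 4.16% of nonzero values were equal in any pair of libraries.

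Values were transformed to log2(TPM + 1), and the 11375 genes reaching 1 TPM in 3 or more libraries were tested with limma 3.58.1 in R 4.3.3 (mean-variance trend, group as the only term, two-sided, Benjamini-Hochberg over all genes tested, threshold 0.05). The test was tested on simulated data. No coordinates are given, since the reference differs from build mm9; hairpin sites came from GENCODE transcripts. The members and lists were chosen with earlier results of these data known. Named were all 9 members and, per other list, genes whose groups did not overlap and the largest 2 differences, with Slc40a1, Hamp, Hmox1 and Alas2; Trf, Fbxl5, Cul1, Pcbp1, Pcbp2, Iscu, Epas1 and Cdc42bpa were added after their values were seen; 1 gene that the rule names is not reported here. The 3 genes nearest to Tfrc and Fth1 were taken by root mean square difference, leaving out predicted genes. Alternatives covered pseudocount, filters, scalings, limma options, a replicate block and each library left out. Figures used matplotlib 3.10.9 in Python 3.11.15.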

Additional observations from a re-analysis of the deposited data

How the results depend on the processing

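No member passed limma under any of the 16 alternatives. Over all genes the count was 0 in each of them except when 1 library was left out, where it ranged from 0 to 6 genes, the 6 without control 1, and none of these was a member. The signs of Fth1, Aco1, Slc11a2, Ncoa4 and Hfe were negative in each alternative that tested them; a filter of 5 TPM removed Aco1, Ireb2 and Slc11a2. With 1 library left out, the log2 fold change of Ftl1 ranged from −0.15 (without radiotherapy 3) to 0.40, of Slc39a14 from −0.25 (without radiotherapy 3; −0.12 without control 1) to 0.70, of Ireb2 from −0.19 to 0.0607 (without radiotherapy 2), and of Tfrc from −0.68 (without control 3) to 0.26 (without radiotherapy 2; 0.15 without control 1 and 0.15 without control 2), each with a change of sign. Ireb2 also turned to 0.0534 with median-of-ratios scaling, 0.0398 with quantile normalization and 0.0304 with the mitochondrial and most abundant genes left out; the cause was not tested beyond these settings. The members' median ranged from −0.33 to −0.05 over the libraries left out. The replicate numbers state no pairing, so they were not treated as pairs in the main fit. With the replicate number as a block, 0 genes and 0 members were called. Slc39a14 rose from library 1 to 3 in both groups, and its SE was 0.26 with the block and 0.52 without. The SE of the other members moved less. Deviations of same-numbered libraries correlated at −0.06, 0.02 and −0.11 across genes, which with 3 libraries per group cannot decide whether they are paired. Depth limits could not be given from TPM.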

Other observations

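Hmox1 and Cp, both named by the rule given above, were each highest in radiotherapy 3. Hmox1, the haem oxygenase that frees iron from haem, measured 9.55, 4.96 and 8.49 TPM in the control libraries, against 6.04, 10.6 and 35.9 TPM with radiotherapy (log2 fold change 0.78, 95% interval −0.45 to 2.01, limma adjusted p = 0.977). Cp (ceruloplasmin), the plasma ferroxidase, measured 8.08, 2.32 and 2.33 TPM in the control libraries, against 3.24, 6.60 and 19.9 TPM with radiotherapy (log2 fold change 0.91, 95% interval −0.41 to 2.24). That library was also the highest for 6 of the 9 storage and uptake genes, Ftl1, Slc39a14 and Hfe among them.

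Trf, the gene of transferrin itself, chosen after its values were seen, ranged more widely than any of the 9 members. It measured 16.0, 31.3 and 2.27 TPM in the control libraries, against 91.2, 10.7 and 31.5 TPM with radiotherapy (log2 fold change 1.43, 95% interval −0.59 to 3.45, limma adjusted p = 0.977). The fat cell hormone gene Adipoq was likewise lowest in control 3, at 1.98 TPM, and highest in radiotherapy 1, at 88.7 TPM. The adipocyte markers Plin1, Cidec and Fabp4 had their extremes in the same libraries. Lipe was instead lowest in radiotherapy 2, at 9.69 TPM, and Lep was highest in control 2, at 0.16 TPM. By library, the 6 adipocyte markers summed to 711, 627 and 252 TPM in controls and 894, 407 and 713 TPM after radiotherapy. Their part in the Trf values was not tested.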
